A study of Mus musculus with 6 samples.

Results

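Potassium channels were followed in pancreatic islets of mice whose beta cells, the insulin-producing cells, lack the transcription factor Tead1. The channel genes described are Kcnc4, Kcnq1 and Kcnh6, which encode voltage-gated pores, Kcnj11 and Abcc8, the subunits of the ATP-sensitive (KATP) channel, Kcnma1, the pore of the large-conductance calcium-activated channel, and the leak channels Kcnk3 and Kcnk16. Every probe set whose platform symbol is exactly 1 of these names was taken. This gave 16 of the 45037 non-control probe sets, for 7 of the 8 genes. Kcnh6, a channel of the erg type, had no single-symbol probe set and was not analysed here. Kcnc4 was chosen by its measured difference between the groups compared below, so the values of the listed genes in that comparison are given as a description, with no test.

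The study hybridized islet RNA to an Affymetrix whole-genome mouse array, 1 array per sample. The Tead1KO group holds 3 arrays of islets from C57Bl6 males aged 12 weeks with a Tead1 knockout restricted to beta cells, and the Flox group holds 3 arrays of islets from flox C57Bl6 males of that age. The labels name neither the Cre driver nor the promoter behind it, and do not say whether Flox mice carried Cre, so an effect of Cre and one of Tead1 cannot be told apart. They do not tie arrays to single animals either, so where arrays did not come from separate mice the spread between them may be technical. All values are probe set signals on a log2 scale, and differences are Tead1KO minus Flox.

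Beta cells set their membrane potential with potassium channels. At low glucose open KATP channels hold the membrane near rest. ATP made from glucose closes them, the cell depolarises, calcium enters and insulin is released. Voltage-gated and calcium-activated potassium channels then end each action potential, and leak channels of the tandem-pore family set the background conductance. Kcnc4 belongs to the Shaw-type Kv3 family, whose members open at strongly depolarised voltages and repolarise fast-firing cells. Tead factors bind a DNA sequence known as the MCAT element, whose core reads CATTCC, or GGAATG on the other strand.

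The bases before the transcription start are shown for Kcnc4 and Kcnk16, the listed genes that had both a RefSeq promoter entry and arrays that did not overlap between the groups. Of the 8 genes, 4 (Kcnc4, Kcnh6, Kcnk16 and Kcnma1) matched the RefSeq promoter table (GRCm38.p6). Each sequence is the 250 bases before the start, 5′ to 3′ on the strand of the gene. Kcnc4 lies at chr3:107458899-107459148 and Kcnk16 at chr14:20269270-20269519, both on the minus strand.

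Kcnc4: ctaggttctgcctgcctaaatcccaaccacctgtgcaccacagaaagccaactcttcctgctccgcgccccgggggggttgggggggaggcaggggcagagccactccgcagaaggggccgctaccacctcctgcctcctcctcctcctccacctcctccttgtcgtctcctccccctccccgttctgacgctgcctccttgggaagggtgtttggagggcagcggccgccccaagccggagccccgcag

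Kcnk16: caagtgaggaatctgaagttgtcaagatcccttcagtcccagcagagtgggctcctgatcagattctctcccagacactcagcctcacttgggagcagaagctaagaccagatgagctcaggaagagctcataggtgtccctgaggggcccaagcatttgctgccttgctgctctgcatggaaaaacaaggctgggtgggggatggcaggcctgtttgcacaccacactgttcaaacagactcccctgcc

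The letters CATTCC and GGAATG would stand in capitals, and neither sequence holds them. Over the whole 300-base windows (250 bases before to 50 after the start), 0 of the 4 matched listed genes held either hexamer, against 14.7% of the 32851 windows in the table. Windows of some other channel genes described below were searched too. Kcnk2, Kcnj13, Kcns3, Abcc9 and Kcnk1 each had a window with a match. Kcnip4, Kcnip2, Kcnc1, Kcnc2, Kcnj8 and Kcnmb4 had none. Kcnk2 and Kcns3 had several windows, not all of which held a match, and Kcnip4 and Kcnc2 had several without one. These genes are therefore not comparable with the 14.7%, which is a share of windows. The Kcnc4 window was 66.7% G and C and that of Kcnk16 57.0%, against a median of 52.7% over all windows. A match or its absence in such a window is a description of these letters.

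The arrays were not of equal quality. Mean signals of the hybridization controls, bacterial transcripts added to every sample, lay between 10.60 and 13.23, and were highest in Tead1KO replicate 3. This array also had the narrowest interquartile range (2.66, against up to 3.32) and the lowest mean correlation with the other arrays (0.969, against 0.984 to 0.986). Unspiked bacterial controls read between 2.87 and 4.70, and this range is called background below. The brighter probe set of Tead1, the targeted gene, read 6.72, 7.49 and 5.95 in the Tead1KO arrays, against 7.22, 6.99 and 7.40 in the Flox arrays. These values overlap, with Tead1KO replicate 2 above every Flox array (log2 difference -0.49, limma adjusted p = 0.871). Where its probe sets lie relative to the deleted sequence is not stated in the labels, and a probe set beyond it would still read transcript, so Tead1 does not check the labels. The probe sets of the hormone genes of beta, alpha, delta and PP cells (Ins2, Gcg, Sst and Ppy) were all bright and overlapped between groups.

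Kcnc4 was far brighter in Tead1KO islets in 1 of its pair of probe sets. The brighter probe set (1425090_s_at) read 10.34, 9.99 and 9.96 in the Tead1KO arrays, against 6.11, 6.24 and 6.62 in the Flox arrays. The lowest Tead1KO array lay 3.34 above the highest Flox array, while the arrays spanned only 0.38 within Tead1KO and 0.51 within Flox. The group means were 10.10 ± 0.21 in Tead1KO and 6.32 ± 0.27 in Flox (SD, n = 3 each), a log2 difference of 3.77 (SE 0.20) or 13.7-fold. Among all 45037 probe sets, only 4 had a larger rise by this difference.

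The dimmer Kcnc4 probe set (1425089_at), annotated to the same transcript accession, gave a much smaller difference. It read 7.21, 6.87 and 7.84 in the Tead1KO arrays, against 6.40, 6.76 and 6.47 in the Flox arrays. The groups did not overlap, but Tead1KO replicate 2 lay only 0.11 above the highest Flox array. The difference was 0.77 (SE 0.26), or 1.70-fold. The order of the Tead1KO arrays also differed between the probe sets, with replicate 1 highest in the first and replicate 3 highest in the second. The suffix _s_at marks probes that can match several transcripts, so the large difference rests on a probe set whose signal may not come from 1 transcript alone. The probe sequences were not used here, and the reason for the disagreement was not tested.

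Kcnq1, the pore of a slow delayed rectifier, was read by 1 probe set. It read 8.15, 7.73 and 8.23 in the Tead1KO arrays, against 7.0, 6.94 and 6.86 in the Flox arrays. All Tead1KO arrays lay at least 0.72 above the highest Flox array, which is wider than the spread within either group (0.50 in Tead1KO and 0.14 in Flox). The means were 8.03 ± 0.27 in Tead1KO and 6.94 ± 0.07 in Flox (SD, n = 3 each), a log2 difference of 1.10 (SE 0.18) or 2.14-fold. All 3 probe sets of the voltage-gated pores were thus higher in every Tead1KO array than in any Flox array, as were 5.36% of all probe sets.

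**Figure D1:**
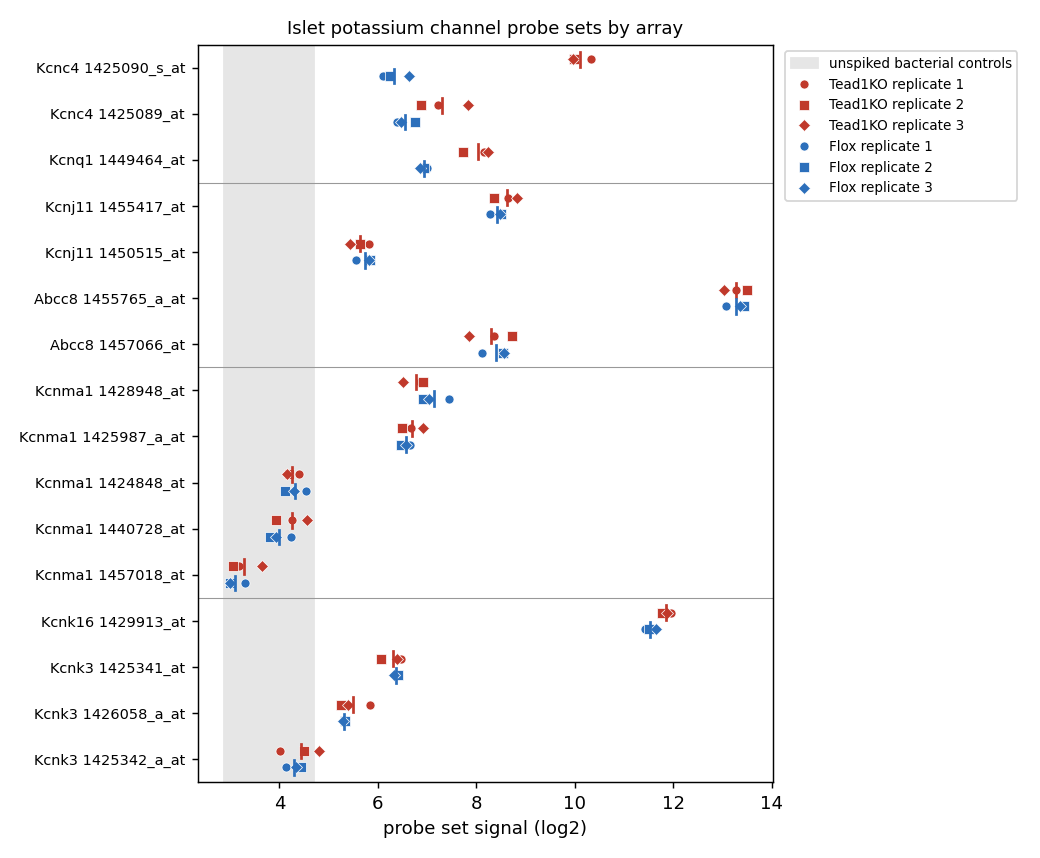
Signal (log2, x axis) of the 16 probe sets of the listed potassium channel genes, by class from top to bottom (voltage-gated, KATP, calcium-activated, leak); red points are the Tead1KO arrays, blue points the Flox arrays, symbols give the replicate, ticks the group means, and the grey band the background of 2.87 to 4.70. The brighter Kcnc4 probe set has Tead1KO arrays near 10 and Flox arrays near 6, whereas the KATP and Kcnma1 probe sets overlap between groups.

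The KATP channel genes did not separate the groups in any of their 4 probe sets. Abcc8, the sulfonylurea receptor SUR1, read 13.28, 13.49 and 13.03 at its brighter probe set in the Tead1KO arrays, against 13.06, 13.43 and 13.35 in the Flox arrays. The means were 13.27 ± 0.23 in Tead1KO and 13.28 ± 0.19 in Flox (SD, n = 3 each), and the difference was -0.01 (SE 0.16). Its dimmer probe set differed by -0.10 (SE 0.25), and its lowest array was Tead1KO replicate 3. Kcnj11, the inward-rectifier pore of the channel, read 8.64, 8.36 and 8.83 at its brighter probe set in the Tead1KO arrays, against 8.27, 8.51 and 8.47 in the Flox arrays. Its groups overlapped through Tead1KO replicate 2, and the difference was 0.20 (SE 0.18). The dimmer Kcnj11 probe set differed by -0.11 (SE 0.17), the other way.

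Kcnma1 was read by 5 probe sets, of which 2 lay above background on average. The brightest read 6.86, 6.92 and 6.52 in the Tead1KO arrays, against 7.44, 6.91 and 7.04 in the Flox arrays, a difference of -0.37 (SE 0.20). The groups overlapped, since Tead1KO replicate 2 matched Flox replicate 2 closely. The next brightest differed by 0.13 (SE 0.17), in the opposite direction, with Tead1KO replicate 3 highest. The 3 probe sets at background differed by -0.07 to 0.26, and all 5 overlapped between groups.

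Of the leak channels, Kcnk16 was slightly higher in every Tead1KO array and Kcnk3 overlapped. Kcnk16, an alkaline-activated channel abundant in islets, read 11.95, 11.76 and 11.87 in the Tead1KO arrays, against 11.42, 11.50 and 11.64 in the Flox arrays. The lowest Tead1KO array lay 0.12 above the highest Flox array, a gap smaller than the spread within either group. The difference was 0.34 (SE 0.13), or 1.26-fold. Kcnk3, an acid-sensitive channel, read 6.47, 6.05 and 6.39 at its brightest probe set in the Tead1KO arrays, against 6.35, 6.41 and 6.33 in the Flox arrays, a difference of -0.06 (SE 0.17). Its next probe set differed by 0.18 (SE 0.18), mostly through Tead1KO replicate 1, which read 5.83 where the other Tead1KO arrays read 5.26 and 5.38. The third Kcnk3 probe set lay at background.

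Set side by side by class, the probe sets whose arrays did not overlap between the groups were 3 of 3 for the voltage-gated pores and 1 of 4 for the leak channels, all higher in Tead1KO, and 0 of 4 for KATP and 0 of 5 for Kcnma1. Over all probe sets tested, 10.5% had arrays that did not overlap. The median difference was 1.10 for the voltage-gated probe sets, -0.06 for KATP, 0.13 for Kcnma1 and 0.15 for the leak channels, against 0.03 over all probe sets. Because the list was drawn up with this comparison known, nothing is read from these counts.

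**Figure D2:**
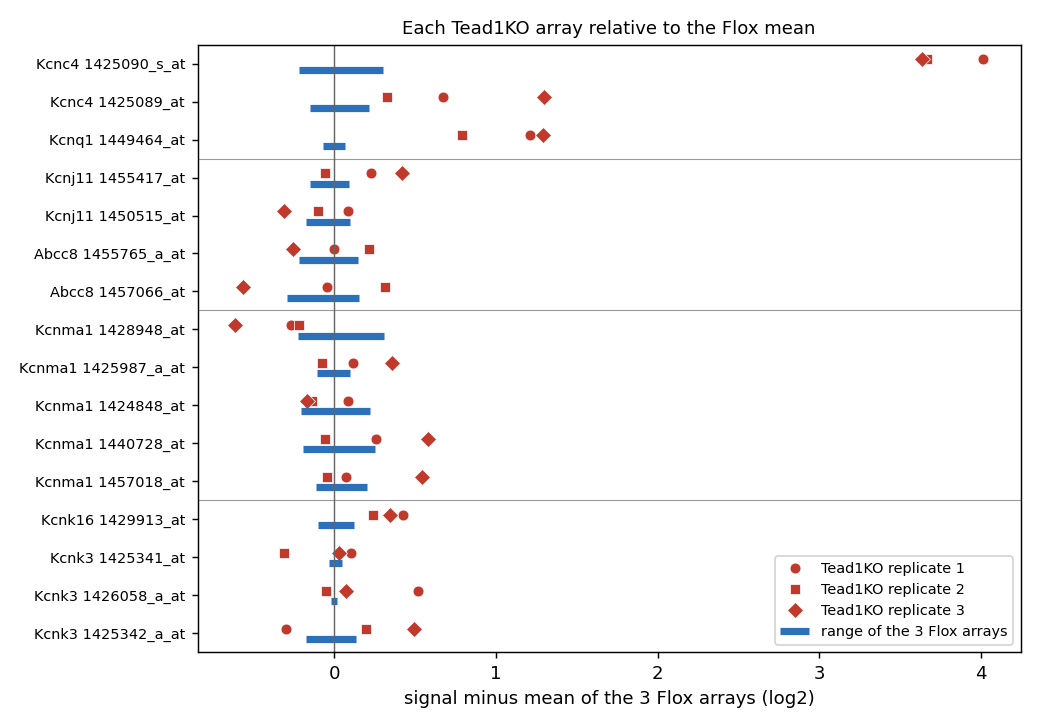
Signal of each Tead1KO array minus the mean of the 3 Flox arrays (log2, x axis) for the 16 probe sets, with the range of the Flox arrays as a blue bar; symbols give the Tead1KO replicate. For the Kcnq1 and dimmer Kcnc4 probe sets replicate 2 is the lowest and replicate 3 the highest of the Tead1KO arrays, while for the brighter Kcnc4 probe set replicates 2 and 3 lie close together at 3.67 and 3.64, below replicate 1 at 4.01.

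Whole islets were measured, so a difference in a transcript per cell and a difference in the number of cells that hold it cannot be told apart. Of 5 measured beta cell markers (7 were listed), 3 were lower in every Tead1KO array, namely Ucn3 by -0.95, Nkx6-1 by -0.95 and Slc2a2 by -0.82, beside 5.16% of all probe sets. None of these passed (limma adjusted p = 0.10, 0.116 and 0.331). The log2 of the summed signal of the beta cell markers was 16.59 to 16.75 in Tead1KO and 16.76 to 16.81 in Flox, whereas Ins2, at the top of the scale, overlapped between the groups. None of the 5 lay at background. Summed signals overlapped between groups for the markers of alpha cells (14.79 to 14.83 in Tead1KO and 14.76 to 14.87 in Flox, 4 of 6 measured), delta cells (14.44 to 14.67 in Tead1KO and 14.44 to 14.76 in Flox, 4 of 4) and PP cells (13.89 to 14.36 in Tead1KO and 13.96 to 14.25 in Flox, 1 of 1). The same held for acinar cells (14.83 to 16.79 in Tead1KO and 14.65 to 16.90 in Flox, 7 of 9), duct cells (11.93 to 12.28 in Tead1KO and 12.12 to 12.35 in Flox, 5 of 6) and endothelium (12.33 to 12.42 in Tead1KO and 12.30 to 12.34 in Flox, 7 of 7). It also held for stroma and pericytes (10.94 to 11.83 in Tead1KO and 11.51 to 11.86 in Flox, 9 of 9), macrophages (10.01 to 10.97 in Tead1KO and 10.33 to 10.91 in Flox, 6 of 6) and Schwann and neural cells (7.63 to 8.39 in Tead1KO and 7.62 to 7.87 in Flox, 4 of 6). Linear signals were summed, so the brightest marker of a list weighs most, as Gcg does for alpha cells. Acinar signal varied widely within both groups, and every measured acinar marker was lowest in replicate 1 of each group at its brightest probe set. Cpa1, for instance, read 12.04, 14.09 and 13.34 in the Tead1KO arrays, against 11.92, 13.93 and 14.33 in the Flox arrays. At their brightest probe sets Eng of endothelium (0.17) and Adgre1 of macrophages (0.15) were higher in every Tead1KO array. Sox9 of duct cells (-0.19) was lower in every one, beside 5.36% higher and 5.16% lower over all probe sets. None of them passed (limma adjusted p = 0.871, 0.873 and 0.871), and stromal markers are given below. Among the markers measured, Ghsr of delta cells, Cftr of duct cells and Pdgfra of stroma lay at background. The part of the lower beta cell markers in the channel differences was not tested.

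The remaining potassium channel genes were taken from the gene nomenclature, pores and auxiliary subunits alike, though earlier results of these data were known when the list was made. Of 91 such genes 79 were measured, by 152 probe sets, of which 81 lay above background. In a limma fit over all 45037 probe sets with Benjamini-Hochberg adjustment, 1 of the 152 changed at an adjusted p under 0.05, a probe set of Kcnip4, which rose; 0 fell. Without Tead1KO replicate 3, the array that stood apart, 2 probe sets were called higher, those of Kcnip4 and Kcnj13. The count was 3 without Tead1KO replicate 2, and 0 without Tead1KO replicate 1 or any 1 Flox array. Of all probe sets, 0.18% were called, 0.131% higher and 0.0488% lower. An unadjusted p under 0.05 was found for 23 of the 152 (15.1%), beside 5.18% of all probe sets. The groups did not overlap in 33 of the 152 (21.7%), 24 of them higher in Tead1KO and 9 lower, beside 10.5% of all probe sets (5.36% higher and 5.16% lower). Among the 9 lower, the largest differences were those of Kcnf1 (-0.78), Kcnu1 (-0.73), Lrrc38 (-0.67) and Kcnj12 (-0.64), all above background on average. None of these passed (limma adjusted p = 0.538, 0.367, 0.538 and 0.509). The median difference of the 152 was 0.10, against 0.03 over all probe sets. Genes with several probe sets count more than once in these shares.

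Kcnip4 encodes a calcium-binding protein that joins Kv4 channels and alters their gating. Its brightest probe set read 6.76, 7.04 and 6.32 in the Tead1KO arrays, against 4.60, 4.73 and 4.88 in the Flox arrays, which lie at the upper edge of background. The difference was 1.97 (SE 0.21, limma adjusted p = 0.0179), or 3.91-fold. Its dimmer probe sets did not overlap between groups either and differed by 1.0 and 1.28 (limma adjusted p = 0.148 and 0.458), with the Flox means of both at background. Against the top of background these dimmer probe sets were at least 1.82-fold and at least 1.17-fold higher. The call of the brightest rested on all arrays but Tead1KO replicates 2 and 3. Its adjusted p was 0.147, 0.163 and 0.133 without Flox replicates 1, 2 and 3, and 0.159 without Tead1KO replicate 1, with the difference between 1.89 and 2.04, and over all alternatives the adjusted p ranged from 0.000189 to 0.163.

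Kcnk2, a leak channel gated by stretch and lipids, had the next largest difference. It read 7.20, 6.61 and 7.29 in the Tead1KO arrays, against 5.77, 5.32 and 5.65 in the Flox arrays. The groups were well apart, by a difference of 1.45 (SE 0.23), but it did not pass over all probe sets (limma adjusted p = 0.0800). It did pass when only the brightest probe set of each gene was tested (limma adjusted p = 0.0466), and over all alternatives the adjusted p ranged from 0.0177 to 0.498.

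Kcnip2, another Kv4 partner, read 9.38, 9.61 and 8.86 in the Tead1KO arrays, against 7.69, 8.40 and 8.25 in the Flox arrays (difference 1.17, limma adjusted p = 0.285). It passed with quantile normalization (limma adjusted p = 0.0465) and once the hybridization control signal entered the fit (limma adjusted p = 0.00366), and over all alternatives the adjusted p ranged from 0.00366 to 0.953. Its other probe sets, near or at background, differed by -0.003 and 0.05. The Kv4 pores that these proteins join, Kcnd1, Kcnd2 and Kcnd3, were singled out after their values were seen. Their 11 probe sets differed by -0.38 to 0.38, and 10 overlapped between groups, the exception being a Kcnd3 probe set at background. Only 3 of the 11 lay above background on average, so most of them could show little. The related Kcnip1 and Kcnip3, also named after their values were seen, differed by -0.22 and -0.04 at their brightest probe sets. Kcns3, an electrically silent subunit that modifies other voltage-gated channels, differed by 0.89 (limma adjusted p = 0.119). Kcnj13, an inward rectifier, differed by 0.91 (limma adjusted p = 0.345). It passed in 1 of 17 alternatives, the fit without Tead1KO replicate 3 (limma adjusted p = 0.0348). The Tead1KO arrays of both lay above all Flox arrays.

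**Figure D3:**
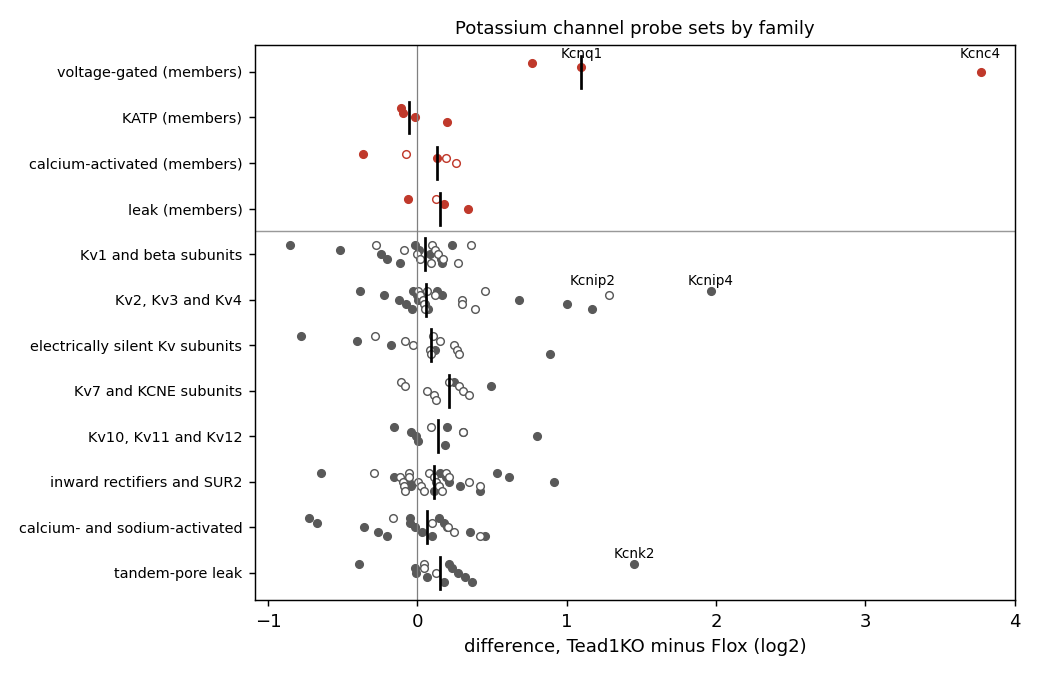
Difference Tead1KO minus Flox (log2, x axis) of each probe set, by channel family; red marks the listed genes and grey the other potassium channel genes, open points lie at background on average, and black ticks are medians. Names mark genes whose brightest probe set differs by more than 1, which are Kcnc4, Kcnq1, Kcnip4, Kcnip2 and Kcnk2.

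None of the nearest relatives and partners of the listed genes named next passed the test. Of the Kv3 family, Kcnc1 differed by 0.17 at its brightest probe set (limma adjusted p = 0.892) and Kcnc2 by 0.05 (limma adjusted p = 0.949), and both overlapped between groups. A dimmer Kcnc1 probe set did not overlap between groups and differed by 0.68 without passing (limma adjusted p = 0.509). Another, at background, did not overlap either (difference 0.45, limma adjusted p = 0.871). The remaining Kcnc1 probe set overlapped and differed by -0.07. Kcnmb4, an auxiliary subunit of the Kcnma1 channel, read 6.58, 6.23 and 6.63 in the Tead1KO arrays, against 6.03, 6.17 and 5.89 in the Flox arrays (difference 0.45, limma adjusted p = 0.871). Other auxiliary subunits of this channel, named after their values were seen, did not share this rise. Lrrc38 was lower in every Tead1KO array (difference -0.67, limma adjusted p = 0.538). Kcnmb2, brighter than Kcnmb4, overlapped at its brightest probe set (difference -0.05), as did Kcnmb1 (0.20) and Lrrc52 (-0.05). Kcnk1, a weakly rectifying leak channel, differed by 0.21 (limma adjusted p = 0.878) and overlapped, with Tead1KO replicate 2 highest.

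The KATP channel of vascular muscle and pericytes is built from Kcnj8 and Abcc9, the counterparts of Kcnj11 and Abcc8. Kcnj8 read 6.81, 6.85 and 7.40 in the Tead1KO arrays, against 6.27, 6.59 and 6.34 in the Flox arrays, and differed by 0.62 (limma adjusted p = 0.777). Abcc9 differed by 0.42 at its brightest probe set, an _s_at one (limma adjusted p = 0.871), and by 0.53 at the next (limma adjusted p = 0.870). Arrays of these probe sets did not overlap between groups, though for the brightest Abcc9 probe set Tead1KO replicate 1 read 6.12 and the highest Flox array 6.11. Of 9 stromal and pericyte markers 1 was higher (Dcn, by 1.11) and 1 lower (Acta2, by -0.99) in every Tead1KO array, beside 5.36% higher and 5.16% lower over all probe sets. Neither passed (limma adjusted p = 0.344 and 0.507), and the part of these cells in the values of Kcnj8 and Abcc9 was not tested.

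**Figure D4:**
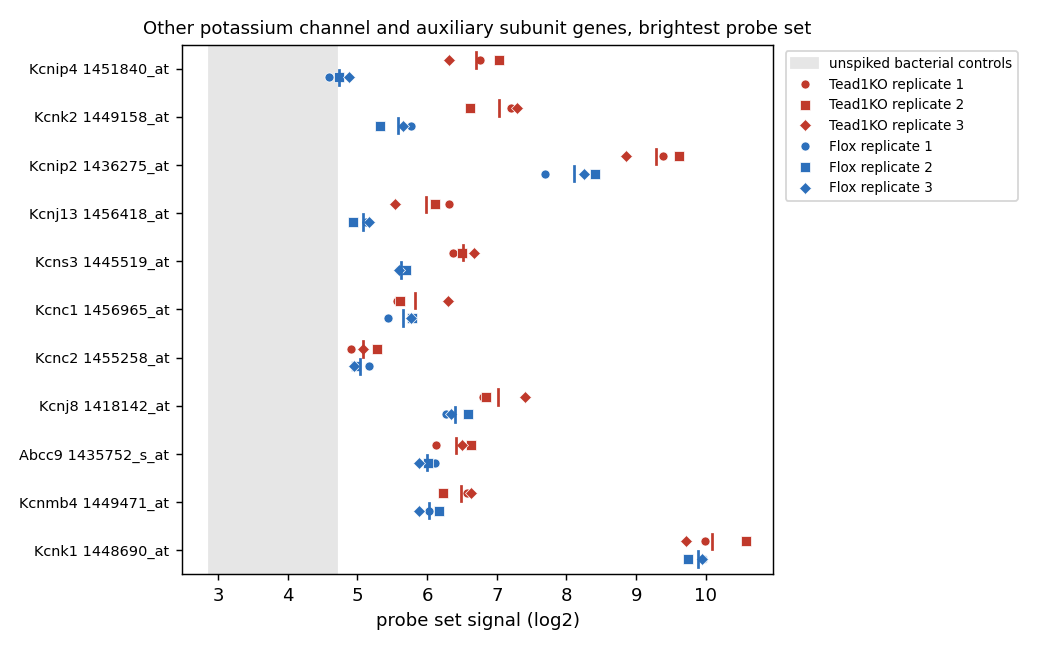
Signal (log2, x axis) of the brightest probe set of 11 further potassium channel and auxiliary subunit genes; red points are the Tead1KO arrays, blue points the Flox arrays, symbols give the replicate, ticks the group means, and the grey band the background. The Flox arrays of Kcnip4 (4.60 to 4.88) lie at the edge of the band and its Tead1KO arrays at 6.32 to 7.04.

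Likeness to the brighter Kcnc4 probe set over the 6 arrays was measured by Pearson's r, a description that mostly reflects the gap between the groups. Of 12510 genes above the median signal, Timp2, an inhibitor of metalloproteinases, was most like it (r = 0.997), with 10.77, 10.61 and 10.73 in the Tead1KO arrays, against 9.36, 9.41 and 9.44 in the Flox arrays. C4bp, a complement regulator with Flox arrays at background, followed (r = 0.997), then Crmp1, a collapsin response mediator, 2610028H24Rik and Smad3, a transducer of TGF-beta signals (r = 0.994 each). All 5 had higher signals in every Tead1KO array. Of the listed channels, Kcnq1 (r = 0.954) and Kcnk16 (r = 0.933) were more like it than the dimmer Kcnc4 probe set was (r = 0.769).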

How the data were processed

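Signals of 6 arrays were analysed. The authors deposited log2 signals per probe set, for which the submitters' processing notes name Affymetrix Expression Console. Its version and how it corrected background, normalized and summarised were not given in the sources used here. That the scale is log2 was taken from the range of values (2.75 to 15.7). Of 45101 probe sets, 64 controls were left out; 34945 of the others carried 1 gene symbol, 932 several and 9160 none here. The table of all non-control probe sets was fitted with limma 3.58.1 under R 4.3.3 (lmFit, eBayes with trend=TRUE, no covariate), with Benjamini-Hochberg adjustment over 45037 probe sets and a call at an adjusted p under 0.05. SE is the moderated standard error. No filter or pseudocount was used. The number of arrays limits the precision. Background was the range of 27 unspiked control probe sets. The procedure was tested on simulated data.

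The members and lists were chosen with earlier results of these data known. Named genes were all members, called probe sets of the other potassium channel genes, the 5 of these with the largest difference above background, a fixed set of relatives, and the 5 genes most like Kcnc4. Some further channel genes were named after their values were seen. Alternatives were the omission of dim or unspecific probe sets, other normalizations and variance models, 1 value per gene, another threshold, a control covariate, a replicate block, and each array left out.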

Additional observations from a re-analysis of the deposited data

How the results depend on the processing

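The difference of the brighter Kcnc4 probe set was 3.65 to 3.92 when single arrays were left out and stayed within the replicate spread in the other fits that kept it. It was 2.27 with the mean of a gene's probe sets and 0.77 when _s_at and _x_at probe sets were left out, since only the dimmer probe set then stands for Kcnc4. The dimmer Kcnc4 probe set itself differed by 0.501 to 0.985 when single arrays were left out. Kcnma1 differed by 0.03 with the mean of its probe sets. The count of called probe sets (81, 59 higher) was 143 with quantile normalization and also at an adjusted p under 0.1, 42 with median centring and 268 once hybridization controls entered as a covariate. Without 1 array it ranged from 4 to 239. Omitting Flox replicate 1 gave 9, Flox replicate 2 gave 11 and Flox replicate 3 gave 11. Omitting Tead1KO replicate 1 gave 4, Tead1KO replicate 2 gave 239 (87 higher and 152 lower) and Tead1KO replicate 3 gave 186. The count of other potassium channel probe sets called (1) was 2 with quantile normalization, with the brightest or the mean probe set per gene, and at an adjusted p under 0.1. It was 4 with the hybridization controls as a covariate and 0 to 3 without 1 array, with 0 without each Flox array or Tead1KO replicate 1, 3 without Tead1KO replicate 2 and 2 without Tead1KO replicate 3. The cause of these shifts was not tested. With the replicate number as a replicate block it was 2, Kcnip4 and Kcnk2 (limma adjusted p = 0.0322), and 96 probe sets were called in all. Deviations of same-numbered arrays correlated by 0.0635, 0.351 and -0.195 for numbers 1, 2 and 3, which did not meet the criterion for pairing (above 0.1 for each number). Signals at background limit what the dimmer Kcnma1, Kcnk3 and Kcnip4 probe sets can show.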
